A study of Mus musculus and Homo sapiens with 176 samples.

Results

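Genes of cholesterol synthesis, transport and turnover were followed in nuclear RNA of mouse prefrontal cortex and cerebellum. The 30 genes are 18 enzymes of the synthesis pathway, 2 genes that control it, 4 genes of efflux and hydroxylation (Abca1, Abcg1, Cyp27a1, Cyp46a1) and 6 other genes of uptake, lysosomal export, esterification and oxysterol sensing. They were taken by gene symbol from tables that list 24318 symbols, and all 30 have a feature there. The study measured histone marks and RNA in nuclei that had been sorted on NeuN, a nuclear antigen of neurons, so that neurons (NeuN+) and glia (NeuN-) of each region could be compared. The 8 RNA libraries form 4 groups of 2, which are the NeuN+ and the NeuN- nuclei of each region. All came from 1 C57BL/6 mouse, called M3, and the labels give mice of 8 to 10 weeks with no treatment and no altered allele. The 168 other samples of the series were not analysed here.

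Brain cells make their own cholesterol, because the lipoproteins of the blood do not cross the blood-brain barrier, and most of it lies in myelin. Synthesis runs from acetyl-CoA through mevalonate and squalene to lanosterol, and from there by demethylation, isomerisation and reduction to cholesterol. Cells pass surplus sterol to lipoproteins through ABC transporters, store it as esters or hydroxylate it, since hydroxylated sterols can leave the brain. Levels are given as deposited, in FPKM (fragments normalised for the length of the transcript and the size of the library). A change is the difference of log2(scaled FPKM + 1) between group means, and a fold is on the same scale, so both understate the change of genes at low level. A gene is called changed where the adjusted p of limma, a linear model fitted over all kept features, is under 0.05. Because the libraries come from the same animal, these p-values reflect only how libraries of 1 animal spread, and that spread may be technical.

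Of the 30 genes, 28 reached 1 FPKM in at least 2 libraries and were tested. Hmgcs1, the enzyme that makes HMG-CoA, is listed at 0 in all 8 libraries at both of its features, which lie on unplaced sequence of chromosome 13. Whether fragments of the gene were lost from these features is not known, so the values do not show that it is silent. Nr1h2, an oxysterol receptor, was listed at 0.0816 and 0.477 FPKM in prefrontal NeuN+, 0.566 and 0.414 in prefrontal NeuN- nuclei, 0.691 and 1.02 in cerebellar NeuN+ nuclei and 0.607 and 0.643 in cerebellar NeuN- nuclei. The deposited limits of the lowest Nr1h2 value were 0 and 0.266. Neither gene was tested. Counts and medians below are therefore over genes that passed a filter on level.

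Spearman correlations across features were 0.972 to 0.977 within groups and 0.680 to 0.808 between them, and 11256 to 12494 features reached 1 FPKM. The number of fragments behind the FPKM is unknown, but the deposited tables give confidence limits for each value, and these are quoted below for the lowest levels. All 7 astrocyte markers and all 7 oligodendrocyte markers fell in NeuN+ in both regions. Their summed levels in scaled FPKM ran from 42.5 to 44.0 and from 87.2 to 93.1 in prefrontal NeuN+, against 581 to 620 and 1859 to 1872 in prefrontal NeuN-. In cerebellum they ran from 38.6 to 41.3 and from 209 to 214 in NeuN+, against 525 to 526 and 1575 to 1599 in NeuN-. Of 7 neuronal markers, 4 rose in prefrontal NeuN+ (Rbfox3, Syt1, Scn2a1, Rims1), Snap25 and Nefl fell and Elavl3 was not called, with a median log2 change of 0.47. Their sum was 1257 to 1270 in prefrontal NeuN+ and 1601 to 1719 in prefrontal NeuN-, most of it Snap25 (means of 1013 and 1424), and in cerebellum it was 1021 to 1025 in NeuN+ and about 490.2 to 490.4 in NeuN-. Rbfox3 stood at mean scaled FPKM of 125 in cerebellar NeuN+ and 34.8 in NeuN-, and the Purkinje cell marker Pcp2 at 408 and 384. Of 4 Purkinje cell markers, 2 rose in cerebellar NeuN+ and 2 were not called. Of 4 inhibitory neuron markers, 2 fell there and 2 were not called. The NeuN- libraries of both regions thus hold neuronal messages beside glial ones. In libraries of mixed nuclei, fewer nuclei of a type and less RNA per nucleus cannot be told apart.

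The promoters show what DNA precedes these genes. SREBP2, the product of Srebf2, is known to switch on synthesis genes by binding sterol regulatory elements, usually beside NF-Y, which binds the CCAAT box. Oxysterol receptors (LXR) switch on efflux genes such as Abca1 through the LXR element. RefSeq promoter windows on GRCm38.p6, from 250 bases before to 50 after the start, were at hand for 25 of the 30 genes. Fdps, Fdft1, Sqle, Npc1 and Abcg1 had none. Both strands were searched, and a sterol regulatory element cannot itself contain a CCAAT box. The 180 bases before the start are shown for 4 synthesis enzymes that differ in CCAAT content and for both hydroxylases, 5′ to 3′ on the strand of the gene, with sterol regulatory elements (TCACNCCAC) and CCAAT boxes of either strand in capitals, so that a box on the opposite strand reads ATTGG.
Hmgcs1, chr13:119690171-119690350, plus strand: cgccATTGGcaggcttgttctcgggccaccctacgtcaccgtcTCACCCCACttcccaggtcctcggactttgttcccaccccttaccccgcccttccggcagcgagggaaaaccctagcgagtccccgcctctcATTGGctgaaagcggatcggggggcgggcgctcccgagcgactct
Mvk, chr5:114444089-114444268, plus strand: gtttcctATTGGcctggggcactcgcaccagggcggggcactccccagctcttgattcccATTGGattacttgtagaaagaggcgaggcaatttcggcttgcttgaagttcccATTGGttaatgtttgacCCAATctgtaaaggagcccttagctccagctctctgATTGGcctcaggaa
Idi1, chr13:8885426-8885605, plus strand: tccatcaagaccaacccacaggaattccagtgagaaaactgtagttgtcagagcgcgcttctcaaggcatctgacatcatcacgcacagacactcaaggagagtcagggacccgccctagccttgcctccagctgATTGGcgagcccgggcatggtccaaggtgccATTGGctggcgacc
Sc5d, chr9:42264301-42264480, minus strand: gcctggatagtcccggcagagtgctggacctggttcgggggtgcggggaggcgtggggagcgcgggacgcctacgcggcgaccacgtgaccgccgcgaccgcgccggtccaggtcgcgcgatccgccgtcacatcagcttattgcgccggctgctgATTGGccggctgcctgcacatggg
Cyp27a1, chr1:74713355-74713534, plus strand: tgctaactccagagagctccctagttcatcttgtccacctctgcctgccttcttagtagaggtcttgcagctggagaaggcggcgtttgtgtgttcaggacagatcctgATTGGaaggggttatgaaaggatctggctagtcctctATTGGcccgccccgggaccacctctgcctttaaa
Cyp46a1, chr12:108334136-108334315, plus strand: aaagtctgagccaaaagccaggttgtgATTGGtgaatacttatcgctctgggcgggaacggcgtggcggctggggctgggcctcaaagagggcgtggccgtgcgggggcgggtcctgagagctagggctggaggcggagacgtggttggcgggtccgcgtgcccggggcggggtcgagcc

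The sterol regulatory element, spelled TCACNCCAC, was found in 1 of the 25 genes, Hmgcs1, and in 1.44% of all 27025 genes with a window. A CCAAT box stood in the window of 20 of 25 genes (80.0%), against 41.1% of all genes. Among synthesis enzymes it was present in 14 of 15 (93.3%). The windows of Mvk, Hmgcs1 and Nsdhl held 5, 4 and 4 boxes, and those of Msmo1 and Hsd17b7 held 3 each. Of the efflux and hydroxylation genes with a window, Cyp27a1 and Cyp46a1 held a box and Abca1 did not. The LXR element, searched only as an exact direct repeat of AGGTCA with any 4 bases between, was found in 0 of 25 genes. It was found in 0.0148% of all genes. A sterol regulatory element or LXR element that departs from the spelling searched would be missed, so the absence of either from a window was not shown. These matches describe letters in a short window and do not show binding.

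Across the 28 tested genes, the NeuN- nuclei of prefrontal cortex had the highest group mean of scaled FPKM for 17. Cerebellar NeuN+ had it for 6, prefrontal NeuN+ for 3 (Sqle, Insig1, Cyp46a1) and cerebellar NeuN- for 2 (Mvd, Lss). In FPKM as deposited, Sqle, Mvd and Abcg1 instead had their highest mean in prefrontal NeuN-, so these placements depend on the scaling. All of these are ranks of means, and for some genes the leading groups overlapped after scaling, among them Pmvk, Fdps, Hsd17b7, Tm7sf2 and Sqle. The matching shares over all features were not computed, so these counts have no background beside them. In the prefrontal gate comparison (NeuN+ minus NeuN-), 21 of 28 fell in NeuN+, where 37.6% of all 14376 tested features did, and 3 rose, where 35.0% did. In the cerebellar gate comparison 15 fell (39.2% of all features) and 5 rose (32.4%). The median log2 change of the genes was -0.65 in prefrontal cortex and -0.28 in cerebellum, against -0.01 and -0.04 over all features. The prefrontal split of 3 higher and 21 lower became 5 and 17 after rescaling FPKM to a common sum. Over all features that rescaling moved the split from 5028 higher and 5403 lower to 6293 and 4217.

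**Figure D1:**
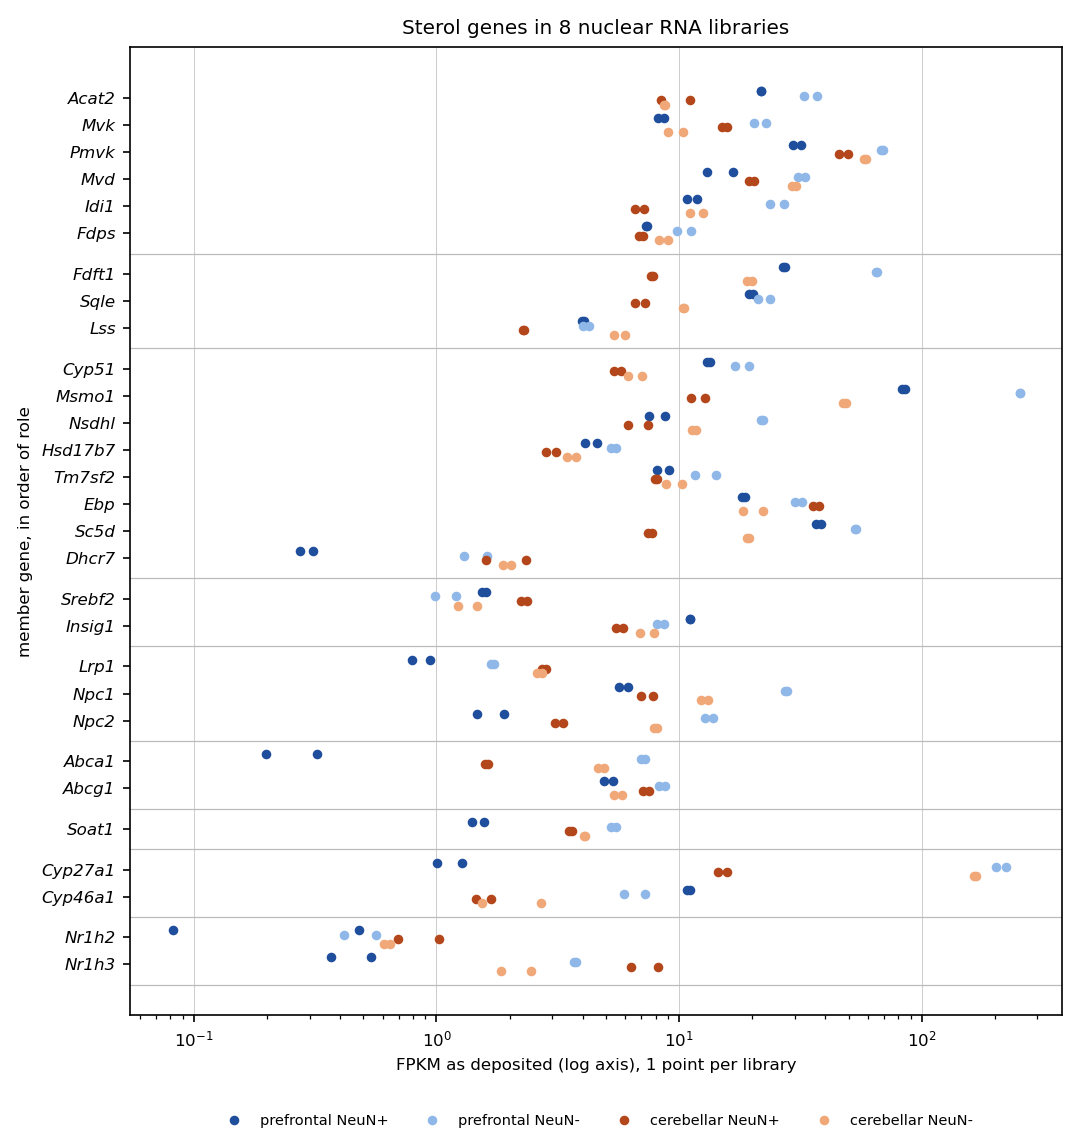
Deposited FPKM (log axis) of the 28 tested genes and Nr1h2, 1 point per library, in order of role from the mevalonate pathway to oxysterol receptors; Hmgcs1, listed at 0, is not drawn. Most synthesis enzymes are furthest right in prefrontal NeuN-, and Cyp27a1 spans the widest range, from 1.00 FPKM in prefrontal NeuN+ to 222 in prefrontal NeuN-.

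The mevalonate enzymes were lower in prefrontal neurons than in prefrontal NeuN- nuclei: all 6 tested fell, where 37.6% of all features did. The calls of Fdps and Acat2 among them were lost under several alternative settings given below. In cerebellum 4 of the 6 fell (39.2% of all features), 1 rose (32.4%) and 1 was not called. Idi1, the isomerase that makes the activated isoprene unit, was listed at 11.8 and 10.8 FPKM in prefrontal NeuN+, 23.6 and 27.1 in prefrontal NeuN- nuclei, 7.14 and 6.56 in cerebellar NeuN+ nuclei and 11.1 and 12.6 in cerebellar NeuN- nuclei. Its NeuN+ libraries were lowest within each region and did not overlap the NeuN- libraries. The fall in NeuN+ was 1.82-fold in prefrontal cortex (limma adjusted p = 0.00024) and 1.64-fold in cerebellum (limma adjusted p = 0.00061).

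Mvk, mevalonate kinase, went opposite ways in the 2 regions. It stood at 8.16 and 8.69 FPKM in prefrontal NeuN+, 22.8 and 20.4 in prefrontal NeuN- nuclei, 15.0 and 15.8 in cerebellar NeuN+ nuclei and 8.99 and 10.4 in cerebellar NeuN- nuclei. NeuN+ was thus the lower gate in prefrontal cortex (log2 change -1.03, limma adjusted p = 3.9e-05) and the higher one in cerebellum (0.62, limma adjusted p = 0.00044). Between the regions, these changes differed by 1.66 log2 units (SE 0.113, limma adjusted p = 3.6e-05). The next kinase, Pmvk, did not turn: it was lower in NeuN+ in both regions, with 31.7 and 29.4 FPKM against 67.8 and 69.3 in prefrontal cortex, and 45.5 and 49.6 against 58.9 and 58.1 in cerebellum.

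Mvd, the decarboxylase that ends the mevalonate steps, fell in NeuN+ by 0.84 on the log2 scale in prefrontal cortex and by 0.56 in cerebellum. Fdps, which makes farnesyl diphosphate, fell by 0.25 and by 0.27. Acat2, the cytosolic thiolase that makes acetoacetyl-CoA, was higher in both prefrontal groups than in both cerebellar groups, at 21.8 and 21.7 FPKM in NeuN+ and 32.6 and 37.1 in NeuN- against 8.42 and 11.05 in cerebellar NeuN+ nuclei and 8.71 and 8.66 in cerebellar NeuN- nuclei. Its 2 gates overlapped in cerebellum, and its change there was not called (0.14, limma adjusted p = 0.34; 0.31 and 0.033 without cerebellar NeuN+ replicate 1). Acat2 shares sequence with its copy Acat3 in mouse, so fragments may have been split between them.

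Of the enzymes from squalene to lanosterol, Fdft1 and Sqle were lower in cerebellum in both gates. Lss was lower there in NeuN+ and higher in NeuN-. Fdft1, squalene synthase, was listed at 27.2 and 26.8 FPKM in prefrontal NeuN+, 64.9 and 65.3 in prefrontal NeuN- nuclei, 7.67 and 7.80 in cerebellar NeuN+ nuclei and 19.0 and 20.1 in cerebellar NeuN- nuclei. No library of one group overlapped another group. It fell in NeuN+ 2.01-fold in prefrontal cortex (limma adjusted p = 3.3e-06) and 2.35-fold in cerebellum (1.5e-06). It was also 3.24-fold lower in cerebellar than in prefrontal NeuN+ (limma adjusted p = 3e-07). The Fdft1 feature overlaps that of Ctsb, and no source used here gives the use of strand. Those of Lss, Tm7sf2 and Npc1 overlap 4930483K19Rik, Vps51 and 3110002H16Rik, so fragments may be shared there too.

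Sqle, the epoxidase that commits squalene to sterols, was not called between the prefrontal gates, at 19.4 and 20.2 FPKM in NeuN+ and 21.2 and 23.7 in NeuN- (log2 change after scaling 0.06, SE 0.0756; 0.27 and called after rescaling FPKM to a common sum, limma adjusted p = 0.021). In cerebellum it was lower, at 6.58 and 7.24 FPKM in NeuN+ and 10.3 and 10.5 in NeuN-, and there the gate change was called (-0.53, limma adjusted p = 0.00072). Lss, the cyclase that makes lanosterol, stood at 4.00 and 4.07 in prefrontal NeuN+, 4.00 and 4.24 in prefrontal NeuN- nuclei, 2.29 and 2.28 in cerebellar NeuN+ nuclei and 5.97 and 5.41 in cerebellar NeuN- nuclei. The prefrontal gate change of Lss was not called (0.17, limma adjusted p = 0.084; 0.34 and 0.0065 after the same rescaling), while its cerebellar NeuN+ level was 2.04-fold lower than NeuN-. For both genes the gate change itself differed between the regions, by -0.59 for Sqle (limma adjusted p = 0.0026) and by -1.20 for Lss (limma adjusted p = 9.7e-05).

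Among the 8 enzymes from lanosterol to cholesterol, 6 fell and 0 rose in prefrontal NeuN+, against 37.6% and 35.0% of all features. In cerebellar NeuN+ 3 fell and 1 rose, where the 3 falls are near the background share of 39.2%. Msmo1, the methylsterol monooxygenase that starts removal of the paired methyl groups, had the highest FPKM of all members in prefrontal cortex. It was listed at 82.7 and 85.7 FPKM in prefrontal NeuN+, 253 and 253 in prefrontal NeuN- nuclei, 11.2 and 12.7 in cerebellar NeuN+ nuclei and 48.8 and 47.5 in cerebellar NeuN- nuclei. The groups kept apart in every library, with NeuN- above NeuN+ in each region and prefrontal cortex above cerebellum in each gate. Mean scaled levels were 87.2 ± 2.13, 223 ± 3.11, 12.3 ± 1.03 and 49.4 ± 1.20 (SD, n = 2 each) in the same order.

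Msmo1 fell in NeuN+ 2.54-fold in prefrontal cortex (limma adjusted p = 3.6e-06) and 3.80-fold in cerebellum (limma adjusted p = 9.6e-07). In cerebellum it was 6.64-fold lower than in prefrontal cortex among NeuN+ nuclei (limma adjusted p = 1.7e-07) and 4.44-fold lower among NeuN- nuclei (limma adjusted p = 5.3e-07). Sc5d, the sterol desaturase of a late step, showed the same order of regions, at 38.4 and 36.6 FPKM in prefrontal NeuN+, 53.0 and 53.7 in prefrontal NeuN- nuclei, 7.76 and 7.48 in cerebellar NeuN+ nuclei and 19.1 and 19.5 in cerebellar NeuN- nuclei. Its fall in NeuN+ was 2.35-fold in cerebellum (limma adjusted p = 2e-06). In prefrontal cortex the fall was 1.20-fold (limma adjusted p = 0.0023), and that call was lost after rescaling FPKM to a common sum (limma adjusted p = 0.36) and with quantile normalization (0.19).

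Ebp, the sterol isomerase, differed from its neighbours in the pathway. It was listed at 18.6 and 18.1 FPKM in prefrontal NeuN+, 32.2 and 30.1 in prefrontal NeuN- nuclei, 35.8 and 37.7 in cerebellar NeuN+ nuclei and 22.2 and 18.3 in cerebellar NeuN- nuclei. Cerebellar NeuN+ was its highest group. The change was -0.50 in prefrontal cortex (limma adjusted p = 0.0022) and 0.84 in cerebellum (limma adjusted p = 0.00018), a difference of 1.34 (SE 0.127, limma adjusted p = 0.00013).

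Among the remaining late enzymes, Nsdhl, which acts with Msmo1 in demethylation, fell in NeuN+ by 1.11 and by 0.69 on the log2 scale, from 22.2 and 21.8 FPKM to 7.54 and 8.72 in prefrontal cortex and from 11.3 and 11.8 to 7.43 and 6.16 in cerebellum. Cyp51, the lanosterol demethylase, was called in neither gate comparison (-0.21 in both; in prefrontal cortex -0.43 and called without scaling, limma adjusted p = 0.0035, and -0.31 without prefrontal NeuN- replicate 1, 0.029; in cerebellum 0.048 without either prefrontal NeuN- library) but was 2.18-fold lower in cerebellum in each gate. Hsd17b7, a reductase of the same demethylation, was likewise called in neither gate comparison. Dhcr7, a final reductase, was the only tested synthesis enzyme below 1 FPKM in a whole group, at 0.310 (deposited limits 0.123 and 0.498) and 0.275 (0.097 and 0.452) in prefrontal NeuN+ against 1.30 and 1.61 in prefrontal NeuN-, and it was 2.30-fold higher in cerebellar than in prefrontal NeuN+ (limma adjusted p = 0.00017). Tm7sf2, a sterol reductase, fell by 0.31 in prefrontal NeuN+ (limma adjusted p = 0.047).

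The weakest prefrontal gate calls were those of Tm7sf2, Fdps and Acat2. Leaving out any of prefrontal NeuN+ replicate 1 or 2 or prefrontal NeuN- replicate 2 ended the calls of all 3 (limma adjusted p of 0.21, 0.075 and 0.24 for Tm7sf2, 0.094, 0.098 and 0.13 for Fdps, and 0.07, 0.071 and 0.11 for Acat2), and leaving out any cerebellar library ended that of Tm7sf2 (0.054 to 0.075). After rescaling FPKM to a common sum all 3 calls were lost, with changes of -0.11 (limma adjusted p = 0.42), -0.053 (0.59) and -0.21 (0.16).

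Both control genes rose in prefrontal NeuN+, and in cerebellar NeuN+ 1 rose and 1 fell. Of all features, 35.0% rose in prefrontal NeuN+, and 32.4% rose and 39.2% fell in cerebellar NeuN+. Srebf2, the transcription factor that drives synthesis, was called higher in NeuN+ in both regions, and it was the only member of which this held. It stood at 1.60 and 1.55 FPKM in prefrontal NeuN+, 1.20 and 0.990 in prefrontal NeuN- nuclei, 2.35 and 2.24 in cerebellar NeuN+ nuclei and 1.48 and 1.22 in cerebellar NeuN- nuclei. The NeuN+ libraries lay above the NeuN- libraries in each region, 1.34-fold in prefrontal cortex (limma adjusted p = 0.0037) and 1.41-fold in cerebellum (limma adjusted p = 0.0017). The Srebf2 feature overlaps that of the microRNA gene Mir33.

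Insig1, which retains the SREBP complex in the endoplasmic reticulum when sterol is ample and is itself a sterol-regulated gene, was highest in prefrontal neurons. Its FPKM was 11.1 and 11.1 in prefrontal NeuN+, 8.67 and 8.12 in prefrontal NeuN- nuclei, 5.51 and 5.90 in cerebellar NeuN+ nuclei and 7.90 and 6.91 in cerebellar NeuN- nuclei. The gates were thus ordered oppositely in the 2 regions. The change was 0.58 in prefrontal cortex (limma adjusted p = 0.00048) and -0.32 in cerebellum (limma adjusted p = 0.0074; 0.071 with quantile normalization). The difference between these changes was -0.90 (SE 0.107, limma adjusted p = 0.00036).

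Genes of uptake and lysosomal export were low in prefrontal neurons. Npc1 and Npc2, which together move cholesterol out of the lysosome, fell in NeuN+ in both regions, and more so in prefrontal cortex. Npc1 was listed at 5.63 and 6.15 FPKM in prefrontal NeuN+, 27.9 and 27.4 in prefrontal NeuN- nuclei, 6.95 and 7.81 in cerebellar NeuN+ nuclei and 12.3 and 13.2 in cerebellar NeuN- nuclei. Npc2 was listed at 1.47 and 1.90 FPKM in prefrontal NeuN+, 13.8 and 12.8 in prefrontal NeuN- nuclei, 3.32 and 3.09 in cerebellar NeuN+ nuclei and 7.92 and 8.09 in cerebellar NeuN- nuclei. Both genes shared the order prefrontal NeuN-, cerebellar NeuN-, cerebellar NeuN+, prefrontal NeuN+, with no overlap of neighbouring groups.

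The fall of Npc1 in NeuN+ was 3.57-fold in prefrontal cortex (limma adjusted p = 1.9e-06) and 1.64-fold in cerebellum (limma adjusted p = 0.00012). That of Npc2 was 4.63-fold (limma adjusted p = 2.6e-06) and 2.15-fold (limma adjusted p = 5.3e-05). Between the regions the gate change differed by 1.12 for Npc1 and by 1.11 for Npc2 (limma adjusted p = 0.00011 and 0.00035). Lrp1, a receptor that takes up lipoproteins, was at low level throughout, at 0.939 and 0.792 FPKM in prefrontal NeuN+, 1.73 and 1.68 in prefrontal NeuN- nuclei, 2.71 and 2.82 in cerebellar NeuN+ nuclei and 2.58 and 2.72 in cerebellar NeuN- nuclei. It fell in prefrontal NeuN+ by 0.40, and in cerebellum its gate change was not called (0.05, SE 0.071; 0.33 and called with quantile normalization, limma adjusted p = 0.0055).

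The efflux transporters differed from each other. Abca1, which loads cholesterol onto lipid-poor apolipoproteins, was lowest in prefrontal neurons, at 0.198 (deposited limits 0.122 and 0.274) and 0.321 (0.225 and 0.418) FPKM, against 7.21 and 7.0 in prefrontal NeuN-. The cerebellar levels were 1.58 and 1.63 FPKM for NeuN+ against 4.65 and 4.89 for NeuN-. It fell in NeuN+ 5.71-fold in prefrontal cortex on the FPKM + 1 scale (limma adjusted p = 7.2e-07), where the ratio of mean scaled FPKM was 23.2, and 2.22-fold in cerebellum (limma adjusted p = 1.7e-05). The changes differed by 1.36 log2 units (SE 0.106, limma adjusted p = 6.1e-05).

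Abcg1, which passes cholesterol to lipoproteins that already carry lipid, stayed within 4.92 to 8.71 FPKM over all libraries. It was listed at 5.36 and 4.92 FPKM in prefrontal NeuN+, 8.71 and 8.30 in prefrontal NeuN- nuclei, 7.13 and 7.51 in cerebellar NeuN+ nuclei and 5.37 and 5.80 in cerebellar NeuN- nuclei. NeuN+ was 1.34-fold lower in prefrontal cortex (limma adjusted p = 0.0013) and higher 1.27-fold in cerebellum (limma adjusted p = 0.0035). The ratio of Abca1 to Abcg1 in FPKM was 0.0370 and 0.0653 in prefrontal NeuN+ and 0.221 and 0.218 in cerebellar NeuN+, and it lay between 0.828 and 0.866 in the 4 NeuN- libraries. Abcg1 was thus the more abundant message of the pair in every library, least so in NeuN- nuclei and most so in prefrontal NeuN+. The nuclei of a gate are mixed, so these ratios do not give the balance within neurons or glia.

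Soat1, the enzyme that esterifies cholesterol for storage, was lowest in prefrontal neurons. It was listed at 1.40 and 1.57 FPKM there, 5.24 and 5.49 in prefrontal NeuN- nuclei, 3.52 and 3.61 in cerebellar NeuN+ nuclei and 4.11 and 4.04 in cerebellar NeuN- nuclei. The prefrontal change of -1.17 was called (limma adjusted p = 1.3e-05) and the cerebellar change of -0.15 was not (limma adjusted p = 0.096). The difference between them was 1.02 (SE 0.101, limma adjusted p = 0.00016).

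The 2 hydroxylases marked opposite gates of the prefrontal cortex. Cyp27a1, the mitochondrial sterol hydroxylase (mm9, chr1:74760148-74784464), was listed at 1.00 and 1.28 FPKM in prefrontal NeuN+, 203 and 222 in prefrontal NeuN- nuclei, 14.5 and 15.8 in cerebellar NeuN+ nuclei and 164 and 168 in cerebellar NeuN- nuclei. The NeuN- libraries of both regions were high, the cerebellar NeuN+ libraries were at an intermediate level and the prefrontal NeuN+ libraries were lowest. Mean scaled levels were 1.18 ± 0.198, 187 ± 14.4, 15.6 ± 0.901 and 170 ± 1.84 (SD, n = 2 each) in the same order. Among the 28 genes it had the largest change in both gate comparisons.

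Cyp27a1 fell in prefrontal NeuN+ by 6.43 on the log2 scale (86.2-fold on the FPKM + 1 scale, limma adjusted p = 5.7e-08), and the ratio of mean scaled FPKM was 158. In cerebellum the fall was 10.3-fold (limma adjusted p = 4.8e-07), smaller than in prefrontal cortex by 3.06 log2 units (SE 0.118, limma adjusted p = 5.7e-06). Among NeuN+ nuclei it was higher 7.61-fold in cerebellum (limma adjusted p = 4e-07). Among NeuN- nuclei the regional change was not called (-0.13, SE 0.0833, limma adjusted p = 0.19), although the prefrontal libraries lay above the cerebellar ones. Without scaling it was -0.36 and called (limma adjusted p = 0.0057), and it was 0.17 and not called after rescaling FPKM to a common sum. The summed oligodendrocyte markers stood at 209 to 214 scaled FPKM in cerebellar NeuN+ against 87.2 to 93.1 in prefrontal NeuN+, and 6 of the 7 rose. The summed level of 6 microglial markers was 252 to 259 in prefrontal NeuN- and 17.4 to 18.1 in cerebellar NeuN-, where C1qa was listed at 0 in both libraries, while the mean of Cyp27a1 was 187 and 170. The part of either cell type in the levels of Cyp27a1 was not tested.

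Cyp46a1, the cholesterol hydroxylase known from neurons (mm9, chr12:109572591-109600444), had its highest level in prefrontal NeuN+. It was listed at 10.7 and 11.1 FPKM there, 7.21 and 5.91 in prefrontal NeuN- nuclei, 1.67 and 1.46 in cerebellar NeuN+ nuclei and 1.55 and 2.70 in cerebellar NeuN- nuclei. The prefrontal gates did not overlap and the cerebellar gates did. NeuN+ was higher 1.83-fold in prefrontal cortex (limma adjusted p = 0.0039), and in cerebellum the change was not called (-0.26, SE 0.176, limma adjusted p = 0.23; -0.53 and 0.014 without cerebellar NeuN- replicate 1). The level was 4.72-fold lower in cerebellar than in prefrontal NeuN+ (limma adjusted p = 3.1e-05) and 2.16-fold lower in NeuN- (limma adjusted p = 0.001).

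The ratio of Cyp27a1 to Cyp46a1, in FPKM, joined these patterns. It was 0.0936 and 0.115 in prefrontal NeuN+, 28.2 and 37.6 in prefrontal NeuN- nuclei, 8.64 and 10.8 in cerebellar NeuN+ nuclei and 106 and 62.1 in cerebellar NeuN- nuclei. Prefrontal NeuN+ was the only group in which Cyp46a1 was the more abundant message of the pair.

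**Figure D2:**
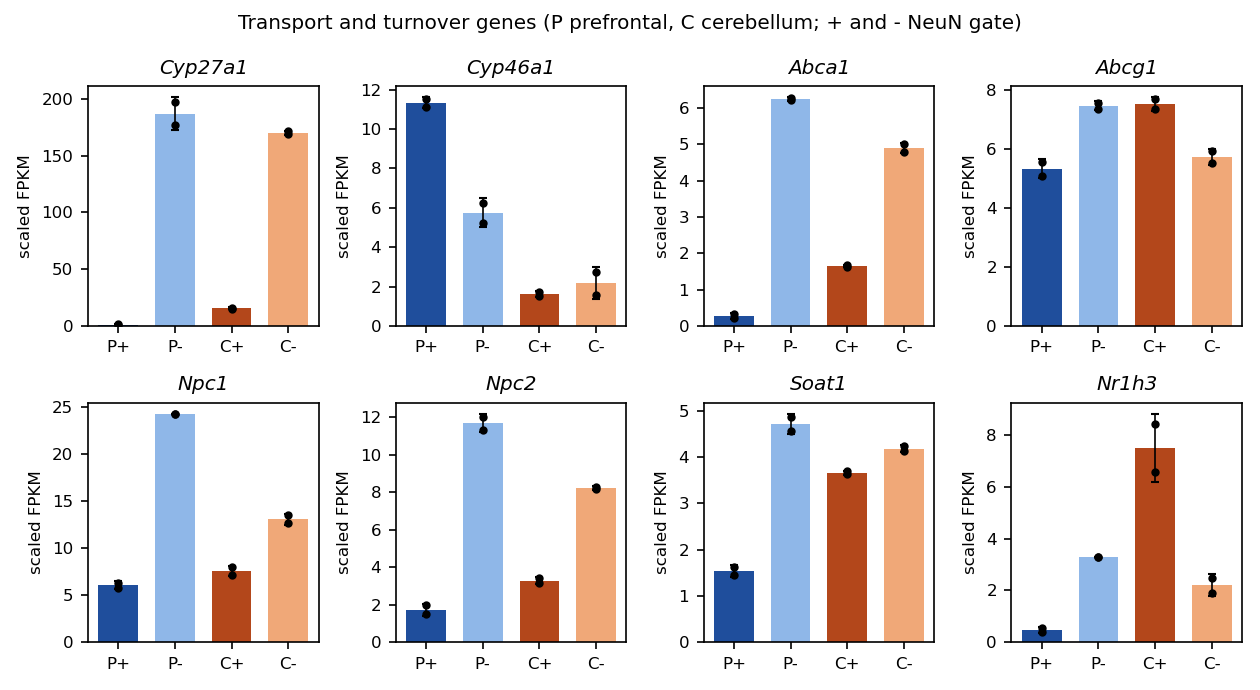
Scaled FPKM of 8 transport and turnover genes in the 4 groups (P prefrontal cortex, C cerebellum, + and - NeuN gate); bars are means of 2 libraries, error bars are SD and points are libraries. Cyp27a1 is high in both NeuN- groups (187 and 170), Cyp46a1 is highest in prefrontal NeuN+ (11.3), and Nr1h3 is highest in cerebellar NeuN+ (7.48).

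Nr1h3, the gene of the oxysterol receptor LXR alpha, turned between regions. It was listed at 0.369 and 0.538 FPKM in prefrontal NeuN+, 3.77 and 3.70 in prefrontal NeuN- nuclei, 6.35 and 8.22 in cerebellar NeuN+ nuclei and 1.85 and 2.44 in cerebellar NeuN- nuclei. Prefrontal neurons were the lowest group and cerebellar neurons the highest. NeuN+ was 2.92-fold lower in prefrontal cortex (limma adjusted p = 8.1e-05) and higher 2.64-fold in cerebellum (limma adjusted p = 0.00012), a difference between the changes of 2.95 (SE 0.197, limma adjusted p = 3.3e-05). The related receptor Nr1h2 stayed near or below 1 FPKM in all libraries.

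**Figure D3:**
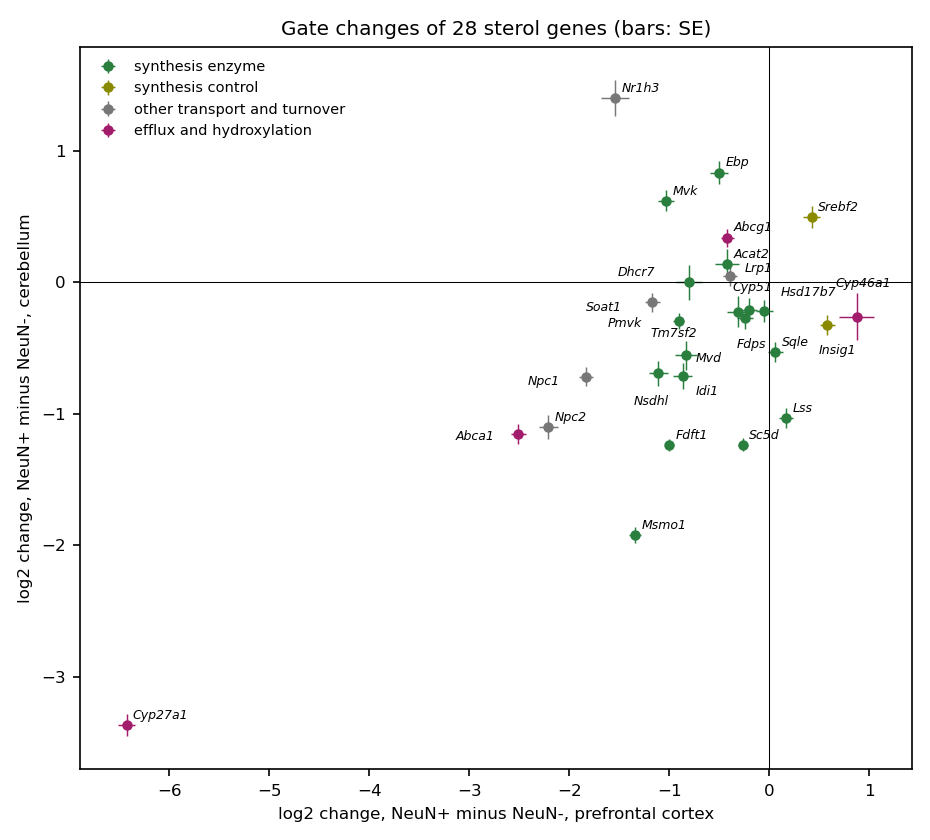
Gate changes (log2, NeuN+ minus NeuN-) of the 28 tested genes in prefrontal cortex (horizontal) and cerebellum (vertical), coloured by class, with SE bars from the fit. Most genes lie at lower left, Cyp27a1 furthest (-6.43, -3.37), Mvk, Ebp, Abcg1 and Nr1h3 are among those at upper left and Srebf2 lies at upper right.

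The gate changes of the 2 regions come from separate libraries. Of the 28 genes, 12 were called lower in NeuN+ in both regions, where 20.3% of all features were: the enzymes Pmvk, Mvd, Idi1, Fdps, Fdft1, Msmo1, Nsdhl and Sc5d, with Npc1, Npc2, Abca1 and Cyp27a1. Mvk, Ebp, Abcg1, Insig1 and Nr1h3, 5 of 28, were called in opposite directions, against 18.1% of all features. Srebf2 alone was called higher in both, against 15.2%. In the test of the difference, 14 of 28 had a higher gate change in cerebellum (33.1% of all features) and 7 a lower one (37.0%), with a median of 0.35 against -0.06 over all features. All 5 tested genes of uptake, lysosomal export, esterification and oxysterol sensing were among the 14, as were Abca1, Abcg1 and Cyp27a1. Of the 17 synthesis enzymes, 6 were higher (Mvk, Ebp, Dhcr7, Pmvk, Acat2, Nsdhl), 5 lower (Lss, Sc5d, Sqle, Msmo1, Fdft1) and 6 not called. Their shares of 35.3% higher and 29.4% lower are near those of all features.

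The difference called for Fdft1 (-0.23, limma adjusted p = 0.015) was lost without scaling of the FPKM, where it was 0.00 (limma adjusted p = 0.97). The calls of Acat2 (limma adjusted p = 0.022) and Nsdhl (limma adjusted p = 0.033) were lost when single libraries were left out. For Acat2 these were either cerebellar NeuN- library, either prefrontal NeuN+ library or prefrontal NeuN- replicate 2 (limma adjusted p of 0.061 to 0.082), and for Nsdhl cerebellar NeuN+ replicate 1, either cerebellar NeuN- library, prefrontal NeuN+ replicate 1 or either prefrontal NeuN- library (0.072 to 0.10).

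Between the regions, 8 of 17 synthesis enzymes were lower in cerebellum in both gates, where 25.2% of all features were. Among the 28 genes 9 were lower in both, 3 were higher in both (23.6% of all features) and 8 were called in opposite directions (14.2%). Among NeuN+ nuclei 14 of 28 genes were higher in cerebellum (36.5% of all features) and 11 were lower (40.7%). Among NeuN- nuclei 4 were higher (40.5% of all features) and 17 were lower (39.0%), with a median of -0.36 against 0.02 over all features. After rescaling FPKM to a common sum, the NeuN- split became 8 higher and 11 lower, and without scaling it became 2 and 22. The split over all 14376 features moved as well, to 7193 higher and 4399 lower with the common sum and to 4874 and 6554 without scaling.

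The 8 enzymes lower in both gates were Acat2, Idi1, Fdft1, Sqle, Cyp51, Msmo1, Hsd17b7 and Sc5d, and Cyp46a1 was lower in both as well. Higher in both were Dhcr7, Lrp1 and Srebf2. In NeuN+ the largest falls were those of Msmo1 (6.64-fold), Cyp46a1 (4.72-fold), Sc5d (4.51-fold) and Fdft1 (3.24-fold). In NeuN- they were those of Msmo1 (4.44-fold), Acat2 (3.18-fold, limma adjusted p = 1.9e-05), Fdft1 (2.76-fold) and Sc5d (2.30-fold). The largest rises were those of Cyp27a1 (7.61-fold) and Nr1h3 (5.75-fold, limma adjusted p = 6e-06) in NeuN+ nuclei.

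Among transport genes, Abca1 was 2.09-fold higher in cerebellar than in prefrontal NeuN+ (limma adjusted p = 1.9e-05) and 1.23-fold lower in NeuN- (limma adjusted p = 0.0095), and Abcg1 was 1.35-fold higher and 1.26-fold lower. Npc1, Npc2, Nr1h3, Mvk and Ebp were likewise higher in NeuN+ and lower in NeuN-, and Lss was the reverse. Srebf2 was 1.28-fold higher in cerebellar NeuN+ (limma adjusted p = 0.0078), while Insig1 was 1.82-fold lower there (limma adjusted p = 5.2e-05) and was not called in NeuN- (0.04, SE 0.0756; 0.31 and called after rescaling FPKM to a common sum, limma adjusted p = 0.0086). Markers differed too: 5 of 5 granule cell markers were higher in cerebellum in both gates, with sums of 648 to 652 scaled FPKM in NeuN+ and 176 to 177 in NeuN-, and 5 of 5 tested microglial markers were lower in cerebellar NeuN-. The part of these cells in the changes of the sterol genes was not tested.

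Several of the small calls between NeuN- groups depended on the scaling. After rescaling FPKM to a common sum, those of Abca1, Abcg1, Ebp, Hsd17b7, Npc2 and Nr1h3 were lost (limma adjusted p of 0.68, 0.40, 0.38, 0.74, 0.11 and 0.23), and those of Dhcr7 and Srebf2 were lost without scaling (0.10 and 0.12).

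**Figure D4:**
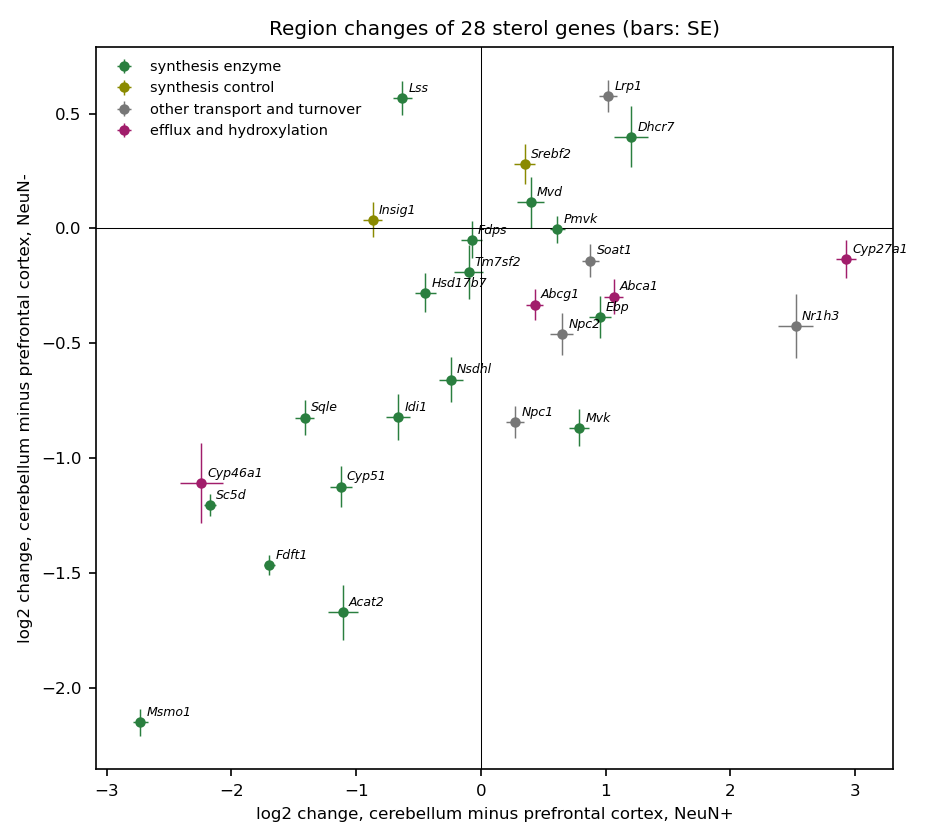
Region changes (log2, cerebellum minus prefrontal cortex) of the 28 tested genes in NeuN+ (horizontal) and NeuN- nuclei (vertical), coloured by class, with SE bars from the fit. Synthesis enzymes fill the lower left, with Msmo1 furthest (-2.73, -2.15), and Cyp27a1 and Nr1h3 lie far right with NeuN- changes of -0.13 and -0.42.

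Synthesis was then set against efflux and hydroxylation within each library. The summed scaled FPKM of the 17 tested synthesis enzymes was 333 and 329 in prefrontal NeuN+, 586 and 613 in prefrontal NeuN- nuclei, 208 and 214 in cerebellar NeuN+ nuclei and 293 and 290 in cerebellar NeuN- nuclei. That of Abca1, Abcg1, Cyp27a1 and Cyp46a1 was 17.9 and 18.3, 197 and 216, 25.6 and 27.1, and 181 and 185 in the same order. Prefrontal NeuN- nuclei had the highest sum for both sets. Cyp27a1 makes up most of the second sum in the NeuN- libraries, so the medians were compared as well.

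The median log2 level of the synthesis enzymes lay above that of the 4 efflux and hydroxylation genes by 2.02 and 1.94 in prefrontal NeuN+, 1.40 and 1.51 in prefrontal NeuN- nuclei, 0.90 and 0.85 in cerebellar NeuN+ nuclei and 0.92 and 0.86 in cerebellar NeuN- nuclei. The prefrontal groups were separate from each other and from the cerebellar groups, whose libraries overlapped. With means in place of medians the difference was 1.87 in prefrontal NeuN+, 0.83 in cerebellar NeuN+, 0.32 in prefrontal NeuN- and 0.16 in cerebellar NeuN-, so that only the first place stayed. These differences carry no test.

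Related sterol genes outside the 30 were followed in a list of 24, of which 22 were tested. In prefrontal NeuN+ 7 were higher and 10 lower, and in cerebellar NeuN+ 6 were higher and 12 lower. These shares of 31.8% and 45.5%, and of 27.3% and 54.5%, stand beside 35.0% and 37.6%, and 32.4% and 39.2%, of all features. Between the regions 8 were higher and 10 lower in cerebellum in each gate, and 8 had a higher and 9 a lower gate change there, all near the shares of all features given above. Lcat, which esterifies cholesterol on lipoproteins, had mean scaled FPKM of 1.33 ± 0.348 in prefrontal NeuN+ and 38.8 ± 1.09 in prefrontal NeuN-, and of 2.31 ± 0.100 and 73.4 ± 1.88 in cerebellum (SD, n = 2 each). Its falls in NeuN+ of 4.10 and 4.49 on the log2 scale (limma adjusted p = 3.6e-07 and 3.5e-07) were the largest of the list. Apod, a lipid-binding apolipoprotein, fell by 3.96 and 2.20, and Srebf1, the SREBP gene better known for fatty acid synthesis, fell by 2.51 and 2.09, where Srebf2 rose in both regions.

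Osbpl1a, an oxysterol-binding protein gene, followed the region rather than the prefrontal gate. Its mean scaled FPKM was 133 ± 3.87 in prefrontal NeuN+, 131 ± 9.91 in prefrontal NeuN-, 15.3 ± 0.995 in cerebellar NeuN+ and 37.3 ± 1.06 in cerebellar NeuN- (SD, n = 2 each). It was 8.25-fold lower in cerebellar than in prefrontal NeuN+ (limma adjusted p = 1.9e-07) and 3.44-fold lower in NeuN- (limma adjusted p = 1.6e-06). Cyp7b1, a hydroxylase of oxysterols, was lower in cerebellar NeuN+ than in prefrontal NeuN+ (log2 change -1.52) and than in cerebellar NeuN- (-1.90). Lipa, the lysosomal lipase that frees cholesterol from its esters, was 3.19-fold lower in cerebellar than in prefrontal NeuN- (limma adjusted p = 3.9e-06).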

How the data were processed

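RNA of NeuN-sorted nuclei was sequenced in 8 libraries of mouse M3. Per the labels' protocols, nuclei of frozen cerebellum were pelleted through sucrose, stained for NeuN and sorted; for prefrontal cortex the handling is not given in these sources. The deposited values are FPKM in gene tables, on mm9, made with Trim Galore 0.3.7, TopHat2 2.1.1, Bowtie 1.1.1 and Cufflinks per the submitters' processing notes, which give no roles. Annotation and strand use are not given in these sources. FPKM already divides by library size and transcript length, so no count test was run.

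FPKM were multiplied by median-of-ratios factors over 9109 features (0.869 to 1.04). Features with at least 1 FPKM in 2 libraries (14376) were fitted as log2(scaled FPKM + 1) in limma 3.58.1 (R 4.3.3), with 1 mean per group, a variance trend and 4 residual degrees of freedom. The 5 comparisons were two-sided, with Benjamini-Hochberg adjustment over all features and calls under 0.05. On data simulated for the prefrontal gate comparison (14376 genes), 26%, 58%, 94% and 98% of 50 genes changed 1.25-, 1.5-, 2- and 4-fold were recovered, with 3 false calls. Only those genes were changed, none at low level, whereas 35.0% and 37.6% of features were called higher and lower in the data. The simulated shares therefore do not carry over to the real fit or to genes at low level. The members and lists were chosen with earlier results of these data known. Members given in full were, per comparison, the 6 called with the largest change, with the hydroxylases, transporters, control genes and oxysterol receptors; of related genes, up to 4. Others are given by role, and were chosen after their values were seen. Of 19 alternative settings, the closing section gives the effect.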

Additional observations from a re-analysis of the deposited data

Results flagged for a closer look

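In limma's test of the difference itself, the gate change (NeuN+ minus NeuN-, log2) of 21 of 28 genes differed between the regions. It was higher in cerebellum for 14 genes (50.0%) and lower for 7 (25.0%), against 33.1% and 37.0% of all features. Most features were called in one direction or the other, so the count of 21 does not set these genes apart. Values are the cerebellar change minus the prefrontal change. Among synthesis enzymes the difference was 1.66 for Mvk, 1.34 for Ebp, 0.80 for Dhcr7, 0.62 for Pmvk, 0.56 for Acat2 and 0.42 for Nsdhl. It was -1.20 for Lss, -0.97 for Sc5d, -0.59 for Sqle, -0.58 for Msmo1 and -0.23 for Fdft1. For Insig1 it was -0.90. Among genes of transport and turnover it was 3.06 for Cyp27a1, 2.95 for Nr1h3, 1.36 for Abca1, 1.12 for Npc1, 1.11 for Npc2, 1.02 for Soat1, 0.76 for Abcg1, 0.44 for Lrp1 and -1.13 for Cyp46a1.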

How the results depend on the processing

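The count of genes called in each comparison stayed within 1.5 times its value under all 19 alternatives, or all 18 run for the difference of gate changes. It ran from 20 to 26 (24 as reported) in the prefrontal gate comparison, 16 to 21 (20) in the cerebellar one, 22 to 26 (25) between NeuN+ groups, 17 to 24 (21) between NeuN- groups and 18 to 22 (21) for the difference of gate changes. Over refits of the 111 single calls, 1985 of 2057 kept the call, 71 lost it and 1 turned direction. With 28 genes tested, none of the counts could rise above 1.5 times its value, and a count does not show direction. Scaling moved the median of all features from -0.19 to 0.14 in the prefrontal gate comparison, from -0.13 to 0.26 between NeuN- groups and from -0.23 to 0.13 for the difference of gate changes. Of 29 uncalled values, 20 were called under at least 1 alternative, among them Cyp27a1 between NeuN- groups unscaled (-0.356, limma adjusted p = 0.0057), Insig1 there with a common sum (0.307, 0.0086), Cyp46a1 in the cerebellar gate without cerebellar NeuN- replicate 1 (-0.528, 0.014), Nsdhl between NeuN+ groups without cerebellar or prefrontal NeuN+ replicate 1 (0.016 and 0.042), Tm7sf2 between NeuN- groups without prefrontal NeuN- replicate 1 (0.04) and Mvd in the difference of gate changes without prefrontal NeuN+ replicate 1 (0.011). The uncalled values that turned were Cyp46a1 in the cerebellar gate (0.081 with quantile normalization, and -0.528 to 0.0085 without single libraries, above 0 without cerebellar NeuN- replicate 2), Cyp27a1 between NeuN- groups (0.23 with quantile normalization, 0.17 with a common sum), Insig1 between NeuN- groups (-0.16 unscaled, -0.0085 with quantile normalization, -0.053 without cerebellar NeuN- replicate 1) and Srebf2 in the difference of gate changes (-0.023 with a common sum, -0.010 without cerebellar NeuN- replicate 2); the cause was not tested. The excess of synthesis over efflux and hydroxylation, in the order prefrontal NeuN+, prefrontal NeuN-, cerebellar NeuN+, cerebellar NeuN-, became 1.87, 0.315, 0.826 and 0.158 with means, 1.92, 1.35, 0.827 and 0.973 with quantile normalization, 2.39, 1.57, 1.09 and 0.999 with a pseudocount of 0.1, and 1.22, 1.1, 0.481 and 0.606 with a pseudocount of 5. Replicate numbers did not pair the samples (correlations of deviations from -0.0451 to 0.0342). With the replicate block, 23, 20, 25, 21 and 20 genes were called, and Tm7sf2 (limma adjusted p = 0.065) and Nsdhl (0.052) lost their calls. Single libraries also ended small calls of Mvd and Npc1 between NeuN+ groups (limma adjusted p of 0.074 without cerebellar NeuN+ replicate 1 for Mvd, and 0.059 and 0.06 without cerebellar NeuN+ replicate 2 or prefrontal NeuN+ replicate 1 for Npc1) and of Fdps in the cerebellar gate (0.093 and 0.11 without cerebellar NeuN+ or NeuN- replicate 2). Between NeuN- groups the call of Dhcr7 ended without either cerebellar NeuN- library, either prefrontal NeuN+ library or prefrontal NeuN- replicate 1 (0.051 to 0.15), that of Nr1h3 without cerebellar NeuN- replicate 1 or either prefrontal NeuN- library (0.097 to 0.15), that of Srebf2 without cerebellar NeuN- replicate 1 or prefrontal NeuN- replicate 2 (0.097 and 0.088), and that of Hsd17b7 without replicate 2 of cerebellar or prefrontal NeuN- (0.10 and 0.092). The deposited confidence limits of FPKM did not enter the fit.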
